A study of Caenorhabditis elegans with 12 samples.

Results

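The genes described here are the aquaporin genes *aqp-1* to *aqp-8* and the glycerol-3-phosphate dehydrogenase genes *gpdh-1* and *gpdh-2* of *Caenorhabditis elegans*. They were picked out by their WormBase names and not by a cutoff on a measured value, but with earlier results of these data known. They are 10 of the 46778 genes counted. RNA seq was performed on whole worms of N2, the wild-type laboratory strain, under 4 conditions with 3 replicates each. These were *lpin-1(RNAi)* worms fed glucose-rich diets, *control(RNAi)* worms (WT) on glucose-rich diets, *lpin-1(RNAi)* worms without added glucose and WT worms without added glucose, the last pair on what are called control diets. In every condition the worms were fed dsRNA-expressing bacteria from the egg stage, with 10 mM IPTG as the inducer, and were moved as day 1 adults to plates with 10 μM FUdR, which keeps progeny from hatching. Plates for glucose-rich diets contained 2% added glucose. The age at harvest and whether the replicates were separate cultures were not given in the sources used here, so the *p*-values measure the spread between these libraries, which may be technical. The study asked how knockdown of *lpin-1*, a phosphatidic acid phosphatase of fat synthesis, alters gene expression on each diet.

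Aquaporins are membrane channels for water, and a subgroup of them, the aquaglyceroporins, also passes glycerol. In *C. elegans*, glycerol is the main osmolyte, and worms in hypertonic surroundings accumulate it through glycerol-3-phosphate dehydrogenase, which reduces the glycolytic intermediate dihydroxyacetone phosphate to glycerol-3-phosphate. The same glycerol-3-phosphate is the backbone of triacylglycerol and phospholipids, so these genes stand at a branch between glycolysis, osmotic balance and fat synthesis, in which LPIN-1 acts further downstream.

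All 10 genes are protein coding and lie at scattered places of the genome (build WBcel235). *aqp-1* (WBGene00000169) lies at II:7235828-7238349 and *aqp-2* (WBGene00000170) at II:9259048-9261981, both on the minus strand. *aqp-3* (WBGene00000171) lies at IV:10961229-10966459 on the minus strand. *aqp-4* (WBGene00000172) at V:9737556-9739740, *aqp-5* (WBGene00000173) at V:10491743-10493256 and *aqp-6* (WBGene00000174) at V:10648446-10651997 share a chromosome and the plus strand. *aqp-7* (WBGene00000175) lies at X:3025063-3026974 on the plus strand and *aqp-8* (WBGene00000176) at X:4702167-4704977 on the minus strand. *gpdh-1* (WBGene00009824) lies at I:14075837-14078211 on the plus strand and *gpdh-2* (WBGene00010778) at III:9854074-9859183 on the minus strand. None of them had a fractional count in any of the 12 libraries, so no reads were divided between them and other genes. The genes *aqp-1* and *ctsa-3.1* share 93 bp on opposite strands, and *gpdh-1* and *gadr-6* share 73 bp in the same way. On the same strand, *aqp-4* shares 39 bp with *marc-1*, which had 0 to 9 counts per library. On opposite strands, *aqp-6* shares 3 bp with *ugt-35* (0 to 51 counts) and 23 bp of exon with *C32C4.10*, and *aqp-3* shares 15 bp of exon with *Y69E1A.14*, with both of these noncoding genes at 0 counts throughout. The library kit keeps the strand, but how the counting used it was not given in the sources used here.

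The libraries held 16546025 to 31534259 counts. On glucose-rich diets, *lpin-1* itself was at 105 to 122 CPM (counts scaled to library size by TMM) in *lpin-1(RNAi)* worms and at 151 to 182 CPM in WT worms (log2 fold change -0.56, adjusted *p* = 6.2e-04). On control diets *lpin-1* was at 84.9 to 94.7 CPM in *lpin-1(RNAi)* worms and at 144 to 167 CPM in WT worms (-0.82, adjusted *p* = 1.6e-05), so its RNA was lower in every *lpin-1(RNAi)* library but still present. None of the marker genes listed for intestine, excretory canal cell, hypodermis, muscle, pharynx, neurons, germ line and sperm was at 0 throughout. A few counts in any library meet this criterion, so it says little about the tissues present. Adjusted *p*-values here and below come from the quasi-likelihood test of edgeR, adjusted after Benjamini and Hochberg over the 14696 genes that passed the filter on low counts, and a gene passed the test at an adjusted *p* under 0.05. Of the 10 genes, 9 passed the filter. *aqp-5*, with 0 to 8 counts per library, did not and was not tested. With whole worms, fewer cells of a type and less RNA per cell cannot be told apart.

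Levels of different genes were compared as CPM per kb of exon. In *lpin-1(RNAi)* worms fed glucose-rich diets, *gpdh-2* led with 284 ± 13.5 CPM per kb (SD, n = 3), followed by *aqp-7* at 71.8 ± 6.22 and *aqp-2* at 62.4 ± 9.96, whose libraries overlapped. In WT worms on glucose-rich diets, *gpdh-2* again led with 201 ± 5.65 CPM per kb, ahead of *aqp-8* at 112 ± 3.49 and *aqp-7* at 96.0 ± 18.3, which overlapped. In *lpin-1(RNAi)* worms fed control diets, *gpdh-2* had 133 ± 5.43 CPM per kb, *aqp-2* had 35.9 ± 7.31 and *aqp-7* had 34.8 ± 5.96, the last pair overlapping. In WT worms on control diets, *aqp-7* at 142 ± 29.02 CPM per kb and *gpdh-2* at 114 ± 1.15 were at the top and overlapped, with *aqp-1* next at 39.3 ± 4.14. On the same diets *aqp-8* was at 7.08 ± 0.124 CPM per kb in *lpin-1(RNAi)* worms and at 33.0 ± 1.54 CPM per kb in WT worms. *aqp-3*, *aqp-5* and *aqp-6* were at the bottom in each condition, between 0.066 and 0.96 CPM per kb on average.

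**Figure D1:**
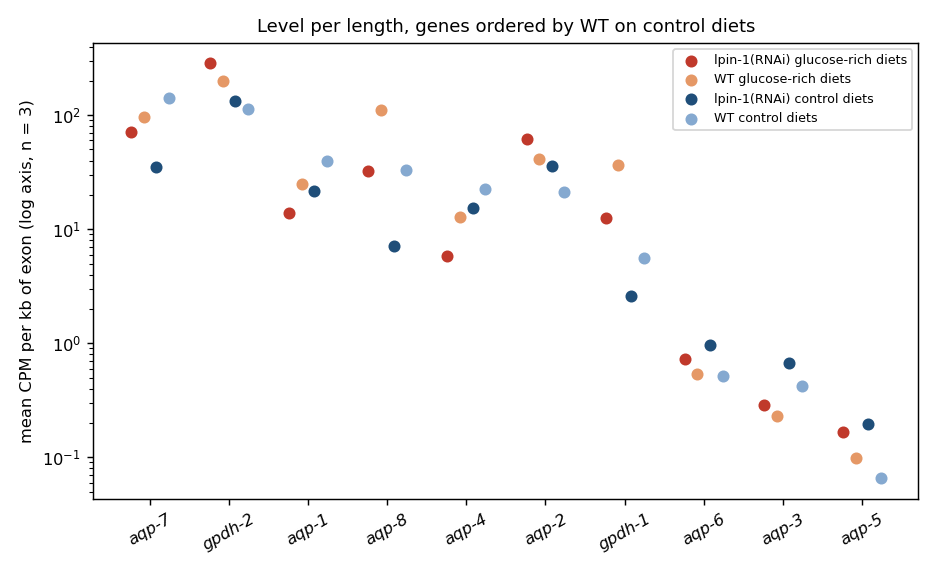
Mean level of each gene in CPM per kb of exon (log axis) in the 4 conditions, n = 3 libraries per point, genes ordered from left to right by their level in WT worms on control diets. *gpdh-2* and *aqp-7* were high in each condition, *aqp-3*, *aqp-5* and *aqp-6* lay below 1 CPM per kb, and *aqp-8* ranged from 7.08 to 112 CPM per kb.

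**Figure D2:**
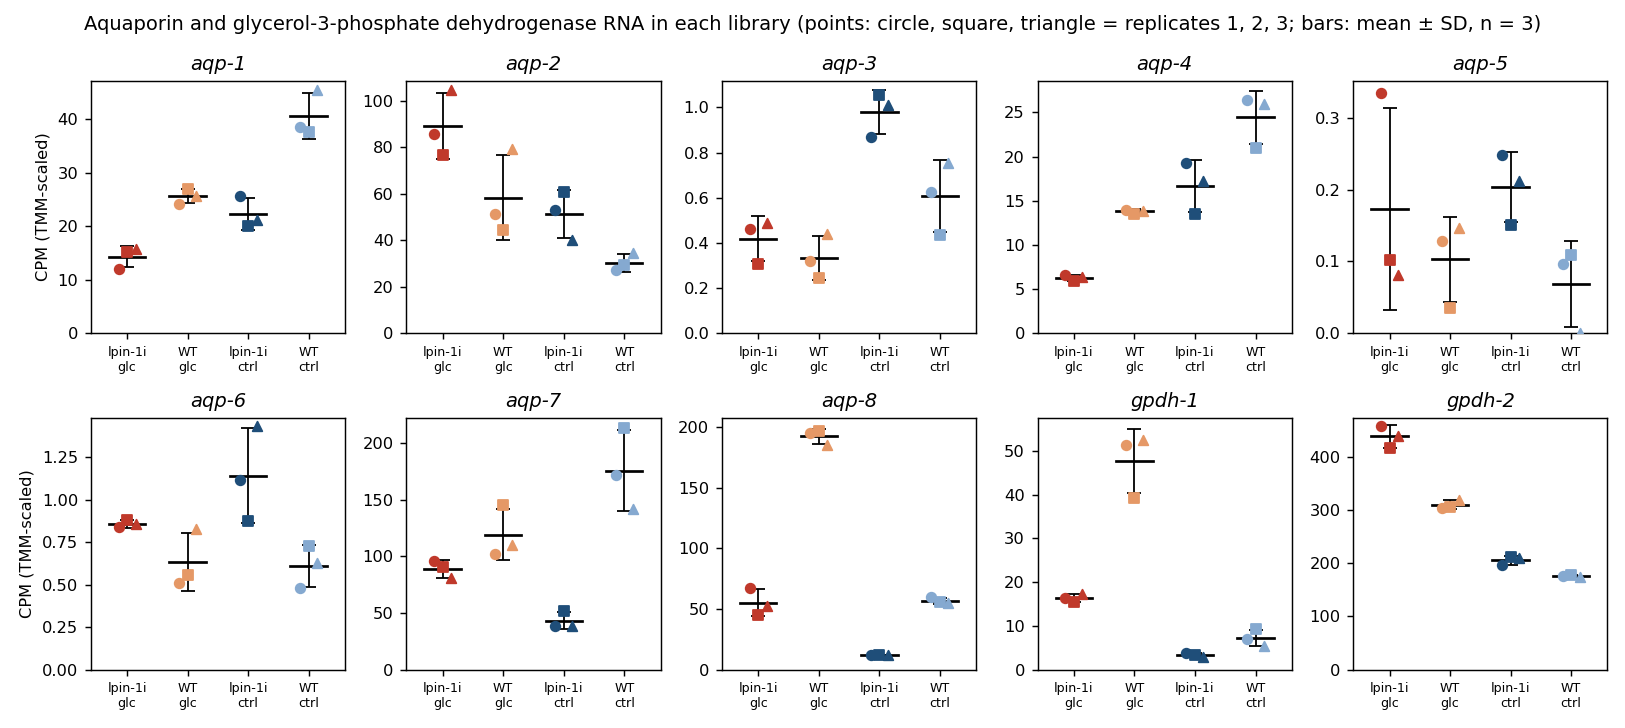
CPM (TMM-scaled, linear axes from 0) of the 10 genes in each of the 12 libraries, in *lpin-1(RNAi)* (lpin-1i) and WT worms on glucose-rich (glc) and control (ctrl) diets. Points are replicates 1 to 3 and bars are mean ± SD. *aqp-8* and *gpdh-1* were highest in WT worms on glucose-rich diets, *gpdh-2* and *aqp-2* in *lpin-1(RNAi)* worms fed glucose-rich diets, and *aqp-1*, *aqp-4* and *aqp-7* in WT worms on control diets.

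Glucose-rich diets raised both dehydrogenase genes in both kinds of worms. In *lpin-1(RNAi)* animals 8 of the 9 genes tested passed the test, where 13.0% of all genes tested did. Of these, 5 rose, against 5.52% of all genes tested, and 3 fell, against 7.49%. In WT animals 6 of 9 passed, where 5.61% of all genes tested did, with 4 that rose (2.17% of all genes tested) and 2 that fell (3.44%). Over the 9 genes, the median log2 fold change was 0.79 in *lpin-1(RNAi)* and 0.04 in WT animals, beside -0.0026 over all genes tested in each. As the genes moved both ways, these medians are the values of single genes, *aqp-2* and the scarce *aqp-6*. They do not show a shift of the genes as a set. Without the libraries numbered 1, 4 genes passed in *lpin-1(RNAi)* and 3 in WT animals.

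*gpdh-1* encodes the isoform known to be induced by hypertonic stress in the intestine and hypodermis. Its RNA was at 16.4, 15.4 and 17.3 CPM in *lpin-1(RNAi)* worms fed glucose-rich diets, against 3.91, 3.41 and 2.82 CPM in those on control diets. In WT worms it was at 51.3, 39.3 and 52.4 CPM on glucose-rich diets, against 7.04, 9.23 and 5.52 CPM on control diets. In both, every library on glucose was above every library without it. The log2 fold change was 2.26 ± 0.19 (SE, 4.79-fold, adjusted *p* = 7.7e-06) in *lpin-1(RNAi)* animals and 2.71 ± 0.18 (6.53-fold, adjusted *p* = 1.9e-06) in WT animals. *gpdh-2*, the more abundant isoform, was at 458, 416 and 439 CPM in *lpin-1(RNAi)* worms fed glucose-rich diets, against 196, 211 and 209 CPM on control diets. In WT worms *gpdh-2* was at 304, 306 and 319 CPM on glucose-rich diets, against 176, 178 and 174 CPM on control diets. The groups again did not overlap, and the rise was 1.09 ± 0.073 on the log2 scale (adjusted *p* = 1.2e-06) in *lpin-1(RNAi)* animals and 0.81 ± 0.073 (adjusted *p* = 2.4e-05) in WT animals. Per length, *gpdh-2* exceeded *gpdh-1* by 22.8 ± 1.11-fold in *lpin-1(RNAi)* worms fed glucose-rich diets and 52.7 ± 10.2-fold in those on control diets, and by 5.603 ± 0.873-fold in WT worms on glucose-rich diets and 21.5 ± 5.22-fold in those on control diets (SD, n = 3 each).

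Among the aquaporins, *aqp-8* and *aqp-2* rose with glucose, and *aqp-1* and *aqp-4* fell. *aqp-8*, a gene of the excretory cell, which regulates the water content of the worm, had 67.5, 45.4 and 52.5 CPM in *lpin-1(RNAi)* worms fed glucose-rich diets, against 12.1, 12.4 and 11.95 CPM on control diets. In WT worms *aqp-8* had 195, 196 and 185 CPM on glucose-rich diets, against 59.7, 55.4 and 54.9 CPM on control diets. Its libraries on glucose were all above those without, 4.54-fold in *lpin-1(RNAi)* animals (log2 2.18 ± 0.12, adjusted *p* = 3.6e-07) and 3.39-fold in WT animals (1.76 ± 0.12, adjusted *p* = 1.9e-06). *aqp-2*, also of the excretory cell, had 85.6, 76.7 and 105 CPM in *lpin-1(RNAi)* worms fed glucose-rich diets, against 52.8, 60.7 and 40.0 CPM on control diets. In WT worms *aqp-2* had 51.4, 44.4 and 79.1 CPM on glucose-rich diets, against 26.9, 29.2 and 34.2 CPM on control diets. The groups did not overlap, yet the libraries on glucose were spread, and the rise of 0.79 ± 0.21 (adjusted *p* = 0.022) in *lpin-1(RNAi)* animals and 0.95 ± 0.21 (adjusted *p* = 0.019) in WT animals depended on single libraries. In *lpin-1(RNAi)* animals the call of *aqp-2* was lost without control-diet replicate 3 (adjusted *p* = 0.080) or without glucose-diet replicate 1 (0.0501) or 3 (0.086), and in WT animals without control-diet replicate 1 (0.089) or 2 (0.054) or without glucose-diet replicate 3 (0.073). The excretory canal markers *pgp-12* and *exc-9* summed to 10.6 to 13.7 CPM in *lpin-1(RNAi)* worms fed glucose-rich diets and 11.5 to 13.9 CPM on control diets, and to 9.07 to 10.97 CPM in WT worms on glucose-rich diets and 8.24 to 9.02 CPM on control diets. Neither marker passed the test for glucose.

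*aqp-1*, an aquaglyceroporin gene of the intestine, had 12.1, 15.1 and 15.8 CPM in *lpin-1(RNAi)* worms fed glucose-rich diets, against 25.6, 20.0 and 21.1 CPM on control diets. In WT worms *aqp-1* had 24.2, 26.9 and 25.7 CPM on glucose-rich diets, against 38.5, 37.6 and 45.4 CPM on control diets. Every library on glucose was below every library without it, by nearly the same extent in both kinds of worms: -0.64 ± 0.13 (adjusted *p* = 0.0056) in *lpin-1(RNAi)* animals and -0.66 ± 0.13 (adjusted *p* = 0.0084) in WT animals. The difference between these effects was 0.02, with a 95% interval of -0.37 to 0.42 (adjusted *p* = 0.996). *aqp-4*, a water channel gene of the intestine, had 6.53, 5.85 and 6.40 CPM in *lpin-1(RNAi)* worms fed glucose-rich diets, against 19.2, 13.5 and 17.2 CPM on control diets. In WT worms *aqp-4* had 13.99, 13.5 and 13.8 CPM on glucose-rich diets, against 26.4, 21.0 and 25.9 CPM on control diets. The drop was -1.41 ± 0.14 (adjusted *p* = 3.5e-05) in *lpin-1(RNAi)* animals and -0.83 ± 0.14 (adjusted *p* = 0.0035) in WT animals. The difference of these effects, -0.58 ± 0.20, did not pass (adjusted *p* = 0.240), except without *lpin-1(RNAi)* control-diet replicate 2 (-0.80, adjusted *p* = 0.034). The intestine markers *elt-2*, *ges-1*, *act-5* and *ifb-2* summed to 288 to 318 CPM in *lpin-1(RNAi)* worms fed glucose-rich diets and 348 to 454 CPM on control diets, and to 522 to 638 CPM in WT worms on glucose-rich diets and 505 to 595 CPM on control diets. With glucose in *lpin-1(RNAi)* animals, *act-5* and *ifb-2* fell by 0.41 and 0.51, and *ges-1* (0.40, adjusted *p* = 0.077, with every library on glucose above those without) and *elt-2* (-0.16) did not pass. In WT animals 0 of the 4 passed. The part of these markers in the drop of *aqp-1* and *aqp-4* was not tested. With the libraries numbered 1 left out, the calls of *aqp-1* were lost in *lpin-1(RNAi)* (-0.43, adjusted *p* = 0.146) and WT animals (-0.65, 0.054), and that of *aqp-4* in WT animals (-0.77, 0.096). With those numbered 3 left out, the calls in WT animals were lost for *aqp-1* (-0.57, 0.174) and *aqp-4* (-0.78, 0.135).

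The scarce aquaporin RNAs gave little. *aqp-3*, a gene of the excretory cell, had 9 to 12 counts per library in *lpin-1(RNAi)* worms fed glucose-rich diets and 19 to 35 counts on control diets, and its drop of -1.23 ± 0.31 passed (adjusted *p* = 0.020), but not without glucose-diet replicate 2 (-1.06, adjusted *p* = 0.074) or without the libraries numbered 1 (0.167), 2 (0.090) or 3 (0.096). In WT worms *aqp-3* had 5 to 9 counts on glucose-rich diets and 12 to 18 counts on control diets (-0.86 ± 0.36, adjusted *p* = 0.219). *aqp-6* did not pass for glucose in *lpin-1(RNAi)* animals (-0.38, 95% interval -0.97 to 0.20) or in WT animals (0.04, 95% interval -0.63 to 0.70). *aqp-5* had 2 to 8 counts in *lpin-1(RNAi)* worms fed glucose-rich diets and 4 to 8 counts on control diets, and 1 to 3 counts in WT worms on glucose-rich diets and 0 to 3 counts on control diets. These counts were below the filter, so no test was made, and with *lpin-1* RNAi the libraries overlapped on glucose-rich diets and lay above those of WT worms on control diets.

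**Figure D3:**
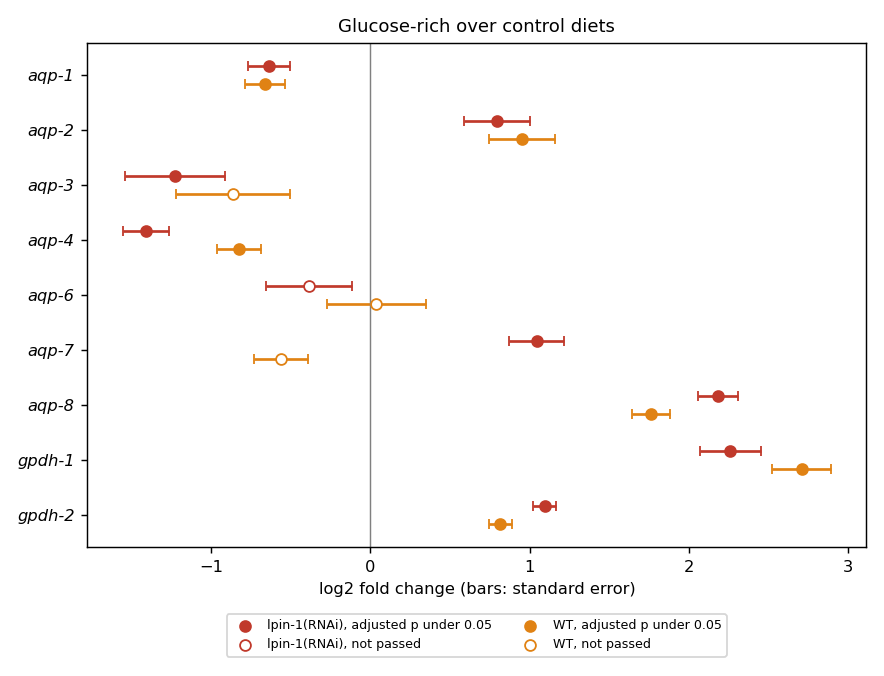
Log2 fold change of the 9 genes tested on glucose-rich over control diets, in *lpin-1(RNAi)* (red) and WT (orange) animals. Bars are standard errors, and filled points passed the test at an adjusted *p* under 0.05. *gpdh-1*, *aqp-8* and *gpdh-2* lay to the right of 0 in both, *aqp-1* and *aqp-4* to the left in both, and *aqp-7* at 1.04 in *lpin-1(RNAi)* and -0.56 in WT animals.

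The response of *aqp-7* to glucose was not the same in both kinds of worms. It had 95.7, 90.5 and 80.5 CPM in *lpin-1(RNAi)* worms fed glucose-rich diets, against 39.0, 51.6 and 38.7 CPM on control diets, with no overlap. In WT worms *aqp-7* had 102, 145 and 110 CPM on glucose-rich diets, against 172, 213 and 142 CPM on control diets, and there the highest library on glucose exceeded the lowest without it. In *lpin-1(RNAi)* animals *aqp-7* rose by 1.04 ± 0.17 on the log2 scale (2.06-fold, adjusted *p* = 0.0014, and 0.90 with adjusted *p* = 0.086 without the libraries numbered 1). In WT animals the difference was -0.56 ± 0.17 and did not pass (adjusted *p* = 0.075), although it did under 7 of 17 alternatives. These included the fit blocked by replicate number (adjusted *p* = 0.0040), DESeq2 (0.023), library totals (0.028) and no filter on low counts (0.044). The fits without control-diet replicate 3 (-0.69, adjusted *p* = 0.034) or glucose-diet replicate 2 (-0.73, 0.029) were also among them. The test of the difference between both glucose effects, the interaction, gave 1.60 ± 0.24 (95% interval 1.09 to 2.12, adjusted *p* = 0.0039). *aqp-7* was the only 1 of the 9 genes tested to pass it with all libraries in the fit, against 1.61% of all genes tested. This call held when any single library was left out, but not when the 4 libraries numbered 1 (1.37, adjusted *p* = 0.253) or numbered 3 (1.68, adjusted *p* = 0.102) were left out together, which leaves 2 libraries per condition.

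In *lpin-1(RNAi)* relative to WT worms, *aqp-8*, *gpdh-1*, *aqp-4* and *aqp-1* fell on both diets and *aqp-7* fell on control diets, while *gpdh-2* and *aqp-2* rose. On glucose-rich diets 6 of 9 genes passed the test, where 31.8% of all genes tested did. On control diets 8 of 9 passed, where 39.3% of all genes tested did. Without the libraries numbered 1, or without those numbered 3, 5 genes passed on control diets. Over the 9 genes, the median log2 fold change was -0.42 on glucose-rich and -0.56 on control diets, beside 0.03 over all genes tested on glucose-rich and -4.0e-05 on control diets. Here too the medians are the values of single genes, *aqp-7* and *aqp-4*. The comparisons share libraries with those of glucose above, so their values are not independent of them. When libraries were scaled by their totals in place of TMM, the median of all genes moved up by 0.20 on glucose-rich and 0.25 on control diets on the log2 scale, and the share of calls that were increases was 77.4% in place of 50.3% on glucose-rich diets and 75.9% in place of 49.7% on control diets.

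*aqp-8* showed the largest drop of the genes described here, to 67.5, 45.4 and 52.5 CPM in *lpin-1(RNAi)* worms, against 195, 196 and 185 CPM in WT worms on glucose-rich diets (-1.80 ± 0.12, adjusted *p* = 1.1e-07). On control diets *aqp-8* was at 12.1, 12.4 and 11.95 CPM in *lpin-1(RNAi)* worms, against 59.7, 55.4 and 54.9 CPM in WT worms (-2.22 ± 0.12, adjusted *p* = 1.5e-08). Its level in *lpin-1(RNAi)* worms with glucose, 55.2 ± 11.3 CPM, thus came near that in WT worms without glucose, 56.6 ± 2.63 CPM (SD, n = 3 each), a pair of conditions for which no test was made. Of the excretory canal markers, *pgp-12* rose with *lpin-1* RNAi by 0.79 on glucose-rich and 0.94 on control diets, and *exc-9* did not pass on either, at -0.14 on glucose-rich and 0.24 on control diets. *gpdh-1* fell in *lpin-1(RNAi)* relative to WT worms by 1.54 ± 0.17 on the log2 scale on glucose-rich diets (adjusted *p* = 1.5e-05) and by 1.09 ± 0.19 on control diets (adjusted *p* = 5.2e-04), with no overlap of libraries on either diet. Its antisense neighbour *gadr-6* rose by 0.80 and 0.95 in the same comparisons. *gpdh-2* in contrast rose by 0.50 ± 0.072 on glucose-rich diets (adjusted *p* = 1.3e-04). On control diets the rise of *gpdh-2* was 0.22 ± 0.072 (adjusted *p* = 0.026) and rested on nearly every library: without replicate 1 or 3 of WT worms, or without replicate 1, 2 or 3 of *lpin-1(RNAi)* worms, the adjusted *p* was 0.062, 0.056, 0.074, 0.063 and 0.112, with log2 fold changes between 0.20 and 0.22. With library totals as the scale, which moved the median of all genes up by 0.25, it was 0.47 (adjusted *p* = 1.5e-04). This control-diet call of *gpdh-2* held under 7 of 17 alternatives, with an adjusted *p* of up to 0.218.

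*aqp-7* fell on control diets, to 39.0, 51.6 and 38.7 CPM in *lpin-1(RNAi)* worms, against 172, 213 and 142 CPM in WT worms (-2.02 ± 0.17, adjusted *p* = 7.9e-07). On glucose-rich diets the difference of *aqp-7* was -0.42 ± 0.17 (adjusted *p* = 0.074), although the libraries did not overlap, and it passed in 3 of 17 alternatives, among them the fit blocked by replicate number (-0.41, adjusted *p* = 0.0082). *aqp-4* fell by 1.14 ± 0.15 on glucose-rich diets (adjusted *p* = 4.7e-05) and by 0.56 ± 0.14 on control diets (adjusted *p* = 0.0056), the second of which did not pass with library totals as the scale (-0.30, adjusted *p* = 0.159) or without the libraries numbered 3 (-0.54, adjusted *p* = 0.087). *aqp-1* fell by 0.84 ± 0.13 on glucose-rich diets (adjusted *p* = 2.4e-04) and by 0.86 ± 0.13 on control diets (adjusted *p* = 1.1e-04). Its antisense neighbour *ctsa-3.1* also fell, by 2.49 on glucose-rich and 2.39 on control diets, and reads of one counted on the other were not tested for. Of the intestine markers, *ges-1*, *act-5* and *ifb-2* fell with *lpin-1* RNAi on both diets and *elt-2* rose, with *elt-2* at 27.4 CPM in *lpin-1(RNAi)* and 15.4 CPM in WT worms on glucose-rich diets. The part of these marker changes in the drop of *aqp-1* and *aqp-4* was not tested.

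The aquaporin with a rise on both diets was *aqp-2*, by 0.61 ± 0.21 on glucose-rich diets (adjusted *p* = 0.038) and 0.77 ± 0.21 on control diets (adjusted *p* = 0.010). On glucose-rich diets the lowest *lpin-1(RNAi)* library, 76.7 CPM, lay below the highest WT library, 79.1 CPM. There the call of *aqp-2* was lost without replicate 1 or 3 of *lpin-1(RNAi)* worms (adjusted *p* = 0.075 and 0.164) and without replicate 1 or 2 of WT worms (0.136 and 0.138). On control diets it was lost without the libraries numbered 1 (0.63, adjusted *p* = 0.135). *aqp-6* had 27 to 36 counts in *lpin-1(RNAi)* and 10 to 20 counts in WT worms on control diets (0.86 ± 0.28, adjusted *p* = 0.028), a call that was lost without replicate 1 or 3 of *lpin-1(RNAi)* worms (adjusted *p* = 0.075 and 0.115), without replicate 1 or 3 of WT worms (0.100 and 0.060) and with DESeq2 (0.068). On glucose-rich diets *aqp-6* did not pass (0.43 ± 0.29, adjusted *p* = 0.295). *aqp-3* on control diets reached 0.69 ± 0.30 (adjusted *p* = 0.084) and passed in the blocked fit (0.73, adjusted *p* = 0.048) and with library totals (0.94, adjusted *p* = 0.026). On glucose-rich diets *aqp-3* did not pass (0.33 ± 0.37, adjusted *p* = 0.545).

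**Figure D4:**
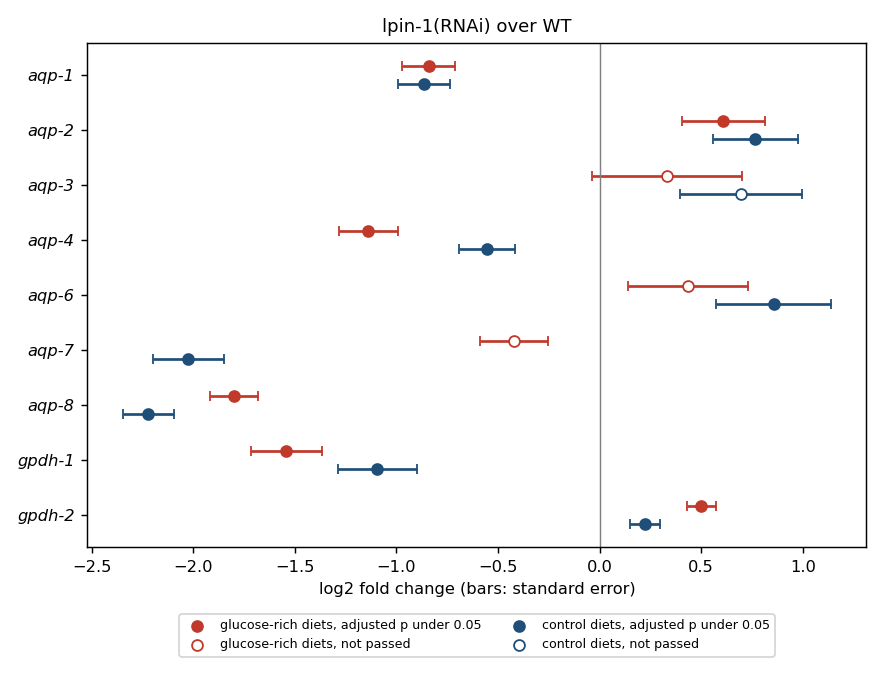
Log2 fold change of the 9 genes tested in *lpin-1(RNAi)* over WT animals, on glucose-rich (red) and control (blue) diets. Bars are standard errors, and filled points passed the test at an adjusted *p* under 0.05. *aqp-8*, *gpdh-1*, *aqp-4* and *aqp-1* lay to the left of 0 on both diets, and *aqp-7* lay at -0.42 on glucose-rich and -2.02 on control diets.

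The other genes around glycerol were taken as lists. Of 8 enzymes of glycerol and glycerol-3-phosphate, 4 rose with glucose in *lpin-1(RNAi)* worms, where 5.52% of all genes tested did, 3 rose in WT worms, where 2.17% did, and 0 fell in either. With DESeq2, 3 rose in *lpin-1(RNAi)* and 2 in WT worms, and with libraries left out 2 to 4 and 2 to 3 did. The fourth gene in *lpin-1(RNAi)* worms was *R11F4.1*, a glycerol kinase gene named after its values were seen (0.69, adjusted *p* = 0.047), and it was not called without control-diet replicate 1 (0.171) or 3 (0.099) or without glucose-diet replicate 1 (0.053), 2 (0.101) or 3 (0.151). The median log2 fold change of the list was 0.48 in *lpin-1(RNAi)* and 0.07 in WT animals, where the median over all genes tested was -0.0026 in both. The increases shared by both were those of *pgph-1*, *pgph-2* and *pgph-3*, whose products belong to a phosphatase family that releases glycerol from glycerol-3-phosphate. *pgph-3* was at 90.7, 87.8 and 95.0 CPM in *lpin-1(RNAi)* worms fed glucose-rich diets, against 10.8, 11.8 and 9.46 CPM on control diets (3.09 ± 0.19, adjusted *p* = 6.6e-07). In WT worms *pgph-3* was at 192, 206 and 259 CPM on glucose-rich diets, against 10.8, 19.7 and 13.7 CPM on control diets (3.89 ± 0.19, adjusted *p* = 1.4e-07). These genes lie near one another on chromosome V and had fractional counts in 11 or all 12 libraries, so the split of reads between them is uncertain. Summed as 1 gene, a choice made after the data were seen, they rose by 1.93 ± 0.12 (adjusted *p* = 7.5e-07) in *lpin-1(RNAi)* animals and by 2.91 ± 0.12 (adjusted *p* = 4.4e-08) in WT animals. The difference of these effects was -0.99 ± 0.16 (adjusted *p* = 0.0077), a smaller rise in *lpin-1(RNAi)* animals. The calls of *pgph-1*, with 0 to 172 counts per library, were lost with DESeq2 (adjusted *p* = 0.102 in *lpin-1(RNAi)* and 0.104 in WT animals). They were also lost in *lpin-1(RNAi)* animals without control-diet replicate 3 (0.080) or glucose-diet replicate 1 (0.135) or 2 (0.128), and in WT animals without control-diet replicate 1 (0.123), 2 (0.095) or 3 (0.074) or glucose-diet replicate 1 (0.106) or 3 (0.115). With *lpin-1* RNAi, 3 of the 8 enzymes passed on glucose-rich diets, where 31.8% of all genes tested did, and 3 on control diets, where 39.3% did, and all of them fell. With library totals as the scale, 1 rose and 2 fell on glucose-rich diets and 0 rose and 1 fell on control diets. *pgph-3* fell by 1.27 and *pgph-2* by 0.97 on glucose-rich diets, and neither passed on control diets. There *pgph-3* passed with DESeq2 (-0.46, adjusted *p* = 0.041), with no filter on low counts (-0.47, 0.043), without WT replicate 1 (-0.64, 0.011) and without the libraries numbered 1 (-0.69, 0.034). *pgph-1* passed on glucose-rich diets in the fit blocked by replicate number (-1.36, adjusted *p* = 0.036).

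**Figure D5:**
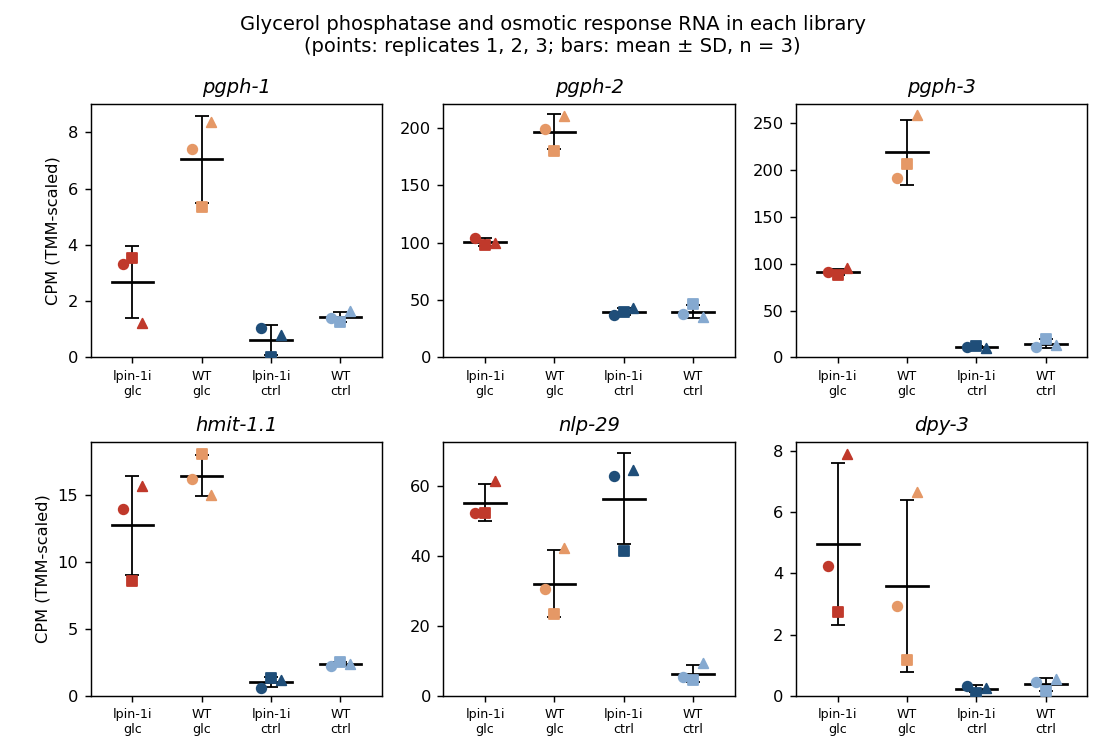
CPM (TMM-scaled, linear axes from 0) of the phosphatase genes *pgph-1*, *pgph-2* and *pgph-3* and of *hmit-1.1*, *nlp-29* and *dpy-3* in each library, in *lpin-1(RNAi)* (lpin-1i) and WT worms on glucose-rich (glc) and control (ctrl) diets. Points are replicates and bars are mean ± SD (n = 3). *pgph-2* and *pgph-3* were highest in WT worms on glucose-rich diets, while *nlp-29* averaged 55.3 CPM on glucose-rich and 56.4 CPM on control diets in *lpin-1(RNAi)* worms, and 32.03 CPM on glucose-rich and 6.36 CPM on control diets in WT worms.

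Genes listed for the osmotic stress response were changed by glucose in part. Of 17 tested of 18 listed, 7 rose and 2 fell in *lpin-1(RNAi)* worms, with a median log2 fold change of 0.29, where 5.52% of all genes tested rose and 7.49% fell. In WT worms 9 rose and 0 fell, with a median of 0.50, where 2.17% of all genes tested rose and 3.44% fell. The increases were 3 to 9 in *lpin-1(RNAi)* and 2 to 9 in WT animals when replicates were left out. Among the increases in both were *osm-11*, *dpy-2*, *dpy-3*, *dpy-7* and *dpy-10*, while *osm-7* rose in WT and fell in *lpin-1(RNAi)* animals. In WT animals the call of *osm-11* was lost without glucose-diet replicate 1 (adjusted *p* = 0.101), 2 (0.092) or 3 (0.065), among other fits. There *dpy-2* was not called without control-diet replicate 1 (0.059), 2 (0.075) or 3 (0.051), nor *dpy-10* without glucose-diet replicate 3 (0.094). Without the libraries numbered 1 or 3, *osm-7* was not called in WT (0.098 and 0.230) or *lpin-1(RNAi)* animals (0.115 and 0.126). The list takes in transporter, peptide, collagen and other genes of unlike roles. Its counts therefore do not measure whether the response was switched on. *hmit-1.1*, which encodes a myo-inositol transporter induced by hypertonic stress, was at 13.9, 8.53 and 15.7 CPM in *lpin-1(RNAi)* worms fed glucose-rich diets, against 0.589, 1.33 and 1.17 CPM on control diets (3.63 ± 0.28, adjusted *p* = 4.0e-06). In WT worms *hmit-1.1* was at 16.2, 18.1 and 15.0 CPM on glucose-rich diets, against 2.22, 2.54 and 2.39 CPM on control diets (2.78 ± 0.26, adjusted *p* = 3.5e-05). *hmit-1.2* averaged 23.6 CPM on glucose-rich and 8.20 CPM on control diets in *lpin-1(RNAi)* worms, and 20.7 and 14.6 CPM in WT worms. In WT worms the change of *hmit-1.2* did not pass, except in the fit blocked by replicate number (0.51, adjusted *p* = 0.037). *hmit-1.3* went the other way, at 7.98 and 12.4 CPM in *lpin-1(RNAi)* worms, where its fall passed, and 27.8 and 34.0 CPM in WT worms, where it did not. *dpy-3*, a collagen gene of the cuticle furrows, rose by 4.49 ± 0.72 in *lpin-1(RNAi)* (adjusted *p* = 0.0012) and by 3.26 ± 0.69 in WT animals (adjusted *p* = 0.015), from levels of 3 to 13 counts per library on control diets, and in WT animals its call was lost without glucose-diet replicate 3 (adjusted *p* = 0.070) or control-diet replicate 1 (0.059) or 2 (0.058). The hypodermis markers were *dpy-7*, which is on the osmotic list as well and already counted there, *rol-6* and *sqt-3*. *dpy-7* and *sqt-3* rose with glucose in both. The call of *dpy-7* was lost in WT animals without glucose-diet replicate 1 (adjusted *p* = 0.065) or 3 (0.144) or control-diet replicate 1 (0.109) or 2 (0.092). In *lpin-1(RNAi)* animals it was lost without glucose-diet replicate 3 (0.0504). *rol-6* did not pass and averaged 0.572 CPM on glucose-rich and 0.661 CPM on control diets in *lpin-1(RNAi)* worms and 0.327 CPM on glucose-rich and 1.295 CPM on control diets in WT worms. The 3 markers summed to 44.4 to 91.5 CPM in *lpin-1(RNAi)* worms fed glucose-rich and 9.44 to 10.5 CPM on control diets, and 27.3 to 85.6 CPM in WT worms on glucose-rich and 9.81 to 22.3 CPM on control diets. Since *gpdh-1* is also known from the hypodermis, these sums stand beside its rise as well, and their part in it was not tested. *nlp-29*, an antimicrobial peptide gene of the epidermis that also responds to osmotic stress, rose by 2.33 ± 0.28 with glucose in WT animals (adjusted *p* = 2.6e-04) but did not pass in *lpin-1(RNAi)* animals, which averaged 55.3 CPM on glucose-rich and 56.4 CPM on control diets, and the difference of the effects was -2.36 ± 0.37 (adjusted *p* = 0.0054). With *lpin-1* RNAi, 4 genes of the list rose and 2 fell on glucose-rich diets, where 31.8% of all genes tested passed, and 5 rose and 4 fell on control diets, where 39.3% passed. In the fit blocked by replicate number 6 rose and 3 fell on glucose-rich diets, and 5 rose and 4 fell on control diets. With library totals as the scale 6 rose and 1 fell on glucose-rich diets, and 6 rose and 4 fell on control diets. The difference of the glucose effects on *nlp-29* was not called without the libraries numbered 1 (adjusted *p* = 0.242) or 3 (0.062).

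Glycolysis, the remaining aquaporins and the regulators of *aqp-1* were counted in the same way. Of 9 genes that lead from glucose to dihydroxyacetone phosphate, 2 rose and 0 fell with glucose in *lpin-1(RNAi)* animals, where 5.52% of all genes tested rose, and 0 to 4 rose with libraries left out. In WT animals 0 passed with the quasi-likelihood test of edgeR or with DESeq2, and 1 had an unadjusted *p* under 0.05. The largest of these changes in *lpin-1(RNAi)* animals was that of *tpi-1*, the triosephosphate isomerase, at 0.40 ± 0.075 (adjusted *p* = 0.0033), which was lost without glucose-diet replicate 1 (adjusted *p* = 0.053) or 2 (0.054) or control-diet replicate 3 (0.058). The other was *gpi-1*, the glucose-6-phosphate isomerase, named after its values were seen (0.39), whose call was lost without control-diet replicate 1 (0.106) or 3 (0.098) or glucose-diet replicate 1 (0.151), 2 (0.074) or 3 (0.074). In the fit blocked by replicate number, 4 of the 9 genes rose and 1 fell with glucose in *lpin-1(RNAi)* animals. With *lpin-1* RNAi, 1 gene of glycolysis rose and 0 fell on glucose-rich diets, where 31.8% of all genes tested passed, and 1 rose and 2 fell on control diets, where 39.3% passed. These counts moved with the fit: 4 rose and 0 fell on glucose-rich and 3 rose and 0 fell on control diets with library totals, and 3 rose and 1 fell on glucose-rich and 2 rose and 3 fell on control diets in the fit blocked by replicate number. *aqp-9*, *aqp-10* and *aqp-11*, the other aquaporin genes with enough counts, did not pass for glucose with edgeR in *lpin-1(RNAi)* or WT animals (0 of 3 in each, with 1 unadjusted *p* under 0.05 in each, and 0 in *lpin-1(RNAi)* and 1 in WT animals with DESeq2). This 1 gene was *aqp-11* (-0.35, adjusted *p* = 0.029), which edgeR also called without WT control-diet replicate 2 (-0.44, adjusted *p* = 0.011). *aqp-10* was likewise called in *lpin-1(RNAi)* animals without control-diet replicate 2 (-0.45, adjusted *p* = 0.025). With *lpin-1* RNAi, *aqp-11* fell by 0.72 ± 0.10 on glucose-rich (adjusted *p* = 9.8e-05) and by 0.86 ± 0.099 on control diets (adjusted *p* = 1.2e-05), and *aqp-9* fell by 0.67 ± 0.18 (adjusted *p* = 0.012, and 0.083 with library totals as the scale) and by 1.05 ± 0.18 (adjusted *p* = 3.7e-04) in the same order of diets. *aqp-10* rose on control diets by 0.39 ± 0.12 (adjusted *p* = 0.023), a call lost without WT replicate 1 (0.064) or 2 (0.082), without *lpin-1(RNAi)* replicate 1 (0.123) or 3 (0.051) and with the compared conditions alone (0.096). On glucose-rich diets *aqp-10* was at 0.27 and passed in the blocked fit (0.28, adjusted *p* = 0.039). Of the genes known from worm genetics to set *aqp-1* expression, *daf-16*, the FOXO transcription factor gene, rose by 0.40 ± 0.11 (adjusted *p* = 0.018) and 0.42 ± 0.11 (adjusted *p* = 0.011) on glucose-rich and control diets, while *daf-2* and *hsf-1* did not pass. In the blocked fit *daf-2* passed on glucose-rich (0.58, adjusted *p* = 0.026) and control diets (0.54, 0.032). With library totals as the scale *daf-2* and *hsf-1* both passed on glucose-rich (adjusted *p* = 0.013 and 0.047) and on control diets (adjusted *p* = 0.0093 and 0.028). On control diets *daf-2* also passed without WT replicate 2 (0.0066) or *lpin-1(RNAi)* replicate 1 (0.029). On glucose-rich diets the call of *daf-16* was lost without replicate 1 or 3 of *lpin-1(RNAi)* worms (adjusted *p* = 0.081 and 0.106) or replicate 2 or 3 of WT worms (0.069 and 0.055). Its call on control diets was lost without the libraries numbered 3 (0.40, adjusted *p* = 0.128). For glucose 0 of these 3 genes passed with edgeR or DESeq2, and 0 had an unadjusted *p* under 0.05.

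Across the 12 libraries, which share their 4 conditions and scaling, the genes described here fell into more than 1 pattern. The Pearson correlation of log2 CPM was 0.93 between *aqp-8* and *gpdh-1*, 0.92 between *aqp-1* and *aqp-4*, and -0.94 between *aqp-4* and *gpdh-2*. Among all genes tested, those most like *aqp-8* were *osm-11*, *smd-1* and *Y71F9B.13* (r = 0.98 for the first), and those most like *gpdh-1* were *ugt-37*, *pgph-3* and *gst-29* (0.98). *gpdh-2* was closest to *icl-1*, *lips-10* and WBGene00014732 (0.99), *aqp-4* to *Y49E10.18*, *pept-1* and *amt-4* (0.99), and *aqp-1* to *ZK228.4*, *ZK1320.3* and *F36G9.3* (0.98). *aqp-7* was closest to *epic-2*, *col-139* and *W10C8.5* (0.98), and *aqp-2* to *zig-4*, *pha-4* and *far-3* (0.98). The scarce *aqp-3* was closest to *E04F6.4*, *hex-2* and *F14B8.6* (0.93), and *aqp-6* to *C13A10.2*, *F39H12.1* and *odr-10* (0.94).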

How the data were processed

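RNA was measured in 12 whole-worm libraries, 4 conditions with 3 replicates each. Per gene, the authors deposited expected counts, that is, estimated reads without normalization. The submitters' processing notes name STAR 2.7.0e, RSEM 1.3.1 and DESeq2 1.22.2 and the builds WBcel235 and ce11. The strand setting of the counting was not given in the sources used here. The expected counts were rounded to whole numbers. Names, exon lengths and overlaps were taken from the WBcel235 annotation, and no sequence was used, so the planned promoter motif counts were not made.

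Genes were filtered with edgeR 4.0.16 in R 4.3.3 (minimum count 10), scaled by TMM and tested with its quasi-likelihood test in 1 model with a mean per condition (8 residual degrees of freedom), with Benjamini-Hochberg adjustment over 14696 genes. CPM are TMM-scaled. The steps were tested on simulated data. Replicates of a condition differed beyond sampling noise (chi-square per gene 7.12 to 52.7), so none were copies.

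The genes described and the lists around them were chosen with earlier results of these data known. Outside the 10 genes, those named are at most 3 per list, with the largest absolute log2 fold change among genes that passed in any comparison, plus overlapping genes, cell type markers and, for each gene, the 3 tested genes with the highest correlation of log2 CPM (prior count 2). *daf-2* and *hsf-1* were named to account for a list of 3. *gpi-1*, *R11F4.1*, *hmit-1.2*, *hmit-1.3*, *osm-7*, *osm-11*, *dpy-2* and *dpy-10* were named after their values were seen. The replicate numbers of the labels paired the libraries in the *lpin-1* RNAi comparisons by the correlation of their deviations from the condition means (0.20 to 0.53, all above 0.1), so block values stand beside those results where they change a call given there. Alternatives were RLE scaling, library totals, other filters, a prior count of 2, DESeq2 1.42.0, the compared conditions alone, the replicate block and replicates left out.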

Additional observations from a re-analysis of the deposited data

Results flagged for a closer look

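The effect of glucose on *aqp-7* differed between *lpin-1(RNAi)* and WT animals by 1.60 on the log2 scale (edgeR's quasi-likelihood test of the interaction, adjusted *p* = 0.0039). In *lpin-1(RNAi)* animals every library on glucose was above every library without it, so any pairing gives a rise. Between same-numbered libraries it was 0.81 to 1.297. WT libraries overlapped between diets, with same-numbered differences of -0.75 to -0.37, and the WT drop did not pass (adjusted *p* = 0.075 in the quasi-likelihood test). The interaction passed under 20 of 22 alternatives, and was lost without the libraries numbered 1 or without those numbered 3.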

How the results depend on the processing

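When libraries were left out, the number of the 9 genes that passed was 4 to 8 for glucose in *lpin-1(RNAi)* animals, 3 to 7 for glucose in WT animals, 5 to 6 for *lpin-1* RNAi on glucose-rich diets, 5 to 8 on control diets and 0 to 2 for the interaction. The lowest counts came without the libraries numbered 1, and also without those numbered 3 for control diets and the interaction. A rise with glucose in WT animals close to 0, that of *aqp-6*, turned to -0.0026 with library totals and ranged over -0.19 to 0.29 with libraries left out. The interaction of *aqp-1* turned to -0.031 with library totals and -0.035 without a filter on low counts, with a range of -0.17 to 0.22, and that of *aqp-2* ranged over -0.35 to 0.13. None of these reversed values was past the test. *aqp-8* and *gpdh-1* passed under 17 of 17 alternatives in all 4 comparisons of 2 conditions. With RLE scaling, 45 of 45 results kept their direction and call. A prior count of 2 enters the fold changes and not the test, so it could not alter a call. It is still counted among the alternatives.

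For glucose the replicate numbers were not taken as pairs, since the lowest correlations were 0.044 and 0.059, although 12 of 12 libraries correlated best with their own number. With the replicate number as a block, 8 genes passed for glucose in *lpin-1(RNAi)* and 7 in WT animals, where *aqp-7* then passed (-0.56, adjusted *p* = 0.0040), 7 for *lpin-1* RNAi on glucose-rich and 9 on control diets, and 1 for the interaction. Beside *aqp-3* and *aqp-7* as given above, it changed no call of the 9 genes for *lpin-1* RNAi. Over all genes the block gave 3411, 1522, 5792, 6760 and 488 calls in place of 1911, 824, 4674, 5772 and 236.

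*aqp-3*, *aqp-5* and *aqp-6* were limited by depth. Reads counted on the wrong strand where genes overlap, separate cultures behind the replicates and the share of each tissue in the RNA could not be examined with these values.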
